A study of Vitis vinifera with 36 samples.

Results

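The genes described here carry sugars across the membranes of the grape berry or make and split sucrose. They were taken by annotation alone: a gene was a member where its Pfam entry named a sugar transporter domain (Sugar_tr), a SWEET domain (MtN3_slv), sucrose synthase, acid invertase (Glyco_hydro_32N) or neutral invertase (Glyco_hydro_100), or where its protein description named a sucrose transporter or a sucrose-phosphate enzyme. The rule found 108 of the 25280 genes of the table, and 72 of them passed the filter of at least 1 FPKM in at least 3 libraries. The other 36 were too low to test. FPKM is the number of sequenced fragments per kilobase of transcript, scaled to the mapped fragments of the library, so levels of different genes can be set side by side.

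Berries of the black grape cultivar Cabernet Sauvignon (Vitis vinifera) were sprayed on the vine, while still hard and green, with 1000 mg/L abscisic acid (ABA1000), with 100 mg/L naphthaleneacetic acid (NAA100), a synthetic auxin, or with neither (Control), and all 3 sprays contained the detergent Tween. Berries were picked at 4 stages of the modified Eichhorn-Lorenz (E-L) scale, numbered 34, 35, 36 and 38, which run from the first softening through colouring to harvest ripeness. Each of the 12 groups had 3 libraries, and each library came from berries pooled over the vines of a field plot and freed of their seeds. The paper reports that ABA-treated berries reached harvest ripeness earlier than the control, and NAA-treated berries later. Groups of the same stage could thus differ in picking date and in time since spraying. Neither can be told apart from the spray itself here. The comparisons ask how these genes differed between each spray and the control at each stage, and how they moved in the control as the berry ripened.

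Sugar reaches the berry as sucrose in the phloem. SWEET proteins let sugars pass a membrane down their gradient, whereas sucrose transporters (SUC) and hexose transporters (HT) take sugars up together with protons. Invertases split sucrose into glucose and fructose, sucrose synthase splits it reversibly into fructose and UDP-glucose, and sucrose-phosphate synthase (SPS) serves to make it again. From the onset of ripening the grape berry stores glucose and fructose in its vacuoles, into which transporters of the tonoplast load them.

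The libraries were alike in depth but not in all marker genes. Their relative depth, recovered from the steps between low values, ranged from 0.922 to 1.034. The members held between 0.353% and 0.715% of the FPKM of a library. The deposited table lists the columns of a group by number and the labels by letter, so each column was assigned to its group only. The berry list of 55 genes, thaumatins and anthocyanidin glucosyltransferases, summed to between 294 and 884 FPKM. Its thaumatin-like gene VIT_202s0025g04310 averaged 344 FPKM, and between 9 and 15 of the list were at 0 in a group. The berry list summed higher in ABA1000 than in the control at E-L 34 (550 to 704 against 316 to 350 FPKM). The same held at E-L 35 (805 to 884 against 583 to 723) and at E-L 36 (553 to 586 against 353 to 446). In NAA100 the list summed lower than the control at E-L 35 (320 to 459) and higher at E-L 36 (462 to 498). In the remaining groups the sprayed and control sums overlapped. The 12 seed genes (oleosins and storage proteins) summed to 102 to 636 FPKM in the other libraries but to 1188 in ABA1000 at E-L 34 replicate 3, to 2526 in ABA1000 at E-L 35 replicate 2 and to 2061 in NAA100 at E-L 35 replicate 3. The 14 chlorophyll-binding genes summed to 917 to 1070 FPKM in NAA100 at E-L 34, against 353 to 469 FPKM in the control. At E-L 35 they summed to 554 to 825 FPKM in NAA100 and 421 to 477 in ABA1000, against 252 to 373 in the control. At E-L 36 the sums were 54.5 to 104 FPKM in NAA100 and 164 to 190 in ABA1000, against 134 to 177 in the control. At E-L 38 they were 87.5 to 108 FPKM in ABA1000 and 54.0 to 88.0 in NAA100, against 34.6 to 51.3 in the control. The part of these tissues in the results below was not tested.

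A further feature concerns the libraries labelled NAA100 at E-L 36. Over the 17598 genes tested, their mean profile correlated at r = 0.9949 with NAA100 at E-L 38 and at r = 0.9715 with the control at E-L 38, but at r = 0.8842 with the control at E-L 36. Only 2 of the 17598 genes (0.0114%) differed between NAA100 at E-L 38 and at E-L 36, none of them a member, in a comparison added after the data were seen. Values of single libraries were not identical, as pairs of libraries from the 2 groups correlated at 0.986 to 0.991, within the range of replicate pairs. Results for NAA100 at E-L 36 are given against the control of the same label, and those against the control at E-L 38 stand beside them or together further on. The spray and the ripeness of these berries cannot be told apart here, and whether these libraries carry the right stage label could not be checked. Every value given for NAA100 at E-L 36 is that of the libraries so labelled.

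Comparisons were fitted with limma on log2(FPKM + 1), the scale of all log2 values below. Calls required an adjusted p no greater than 0.01 together with a change of 1 or more on that scale, in either direction. The ABA1000 spray changed few members. At E-L 34 it raised 2 of 72 (0.136% of all genes rose) and lowered none (0.551% of all genes fell, and 0.688% were called either way). At E-L 35 it raised 4 (0.847% of all genes) and lowered 1 (0.608%, or 1.45% either way). None was called at E-L 36 (0.665% of all genes) or E-L 38 (0.648%), although 27 and 18 members had an unadjusted p under 0.05 in limma. The share of all genes under that unadjusted p is not given here, so these counts are no result about the members. The NAA100 spray raised 3 (2.25% of all genes rose) and lowered 3 (1.54% fell) at E-L 34, where 3.79% of all genes were called. At E-L 35 it raised 2 (1.28%) and lowered 1 (1.16%, or 2.44% either way). At E-L 36 it raised 7 (9.05%) and lowered 11 (10.8%, or 19.9% either way), and at E-L 38 it raised 4 (0.398%) and lowered 6 (3.02%, or 3.42% either way). At E-L 36 the 18 members called were 25.0% of those tested, near the share of all genes. The median log2 change of the members lay between -0.17 and 0.13 in the 8 comparisons, and that of all genes between -0.08 and 0.09.

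**Figure D1:**
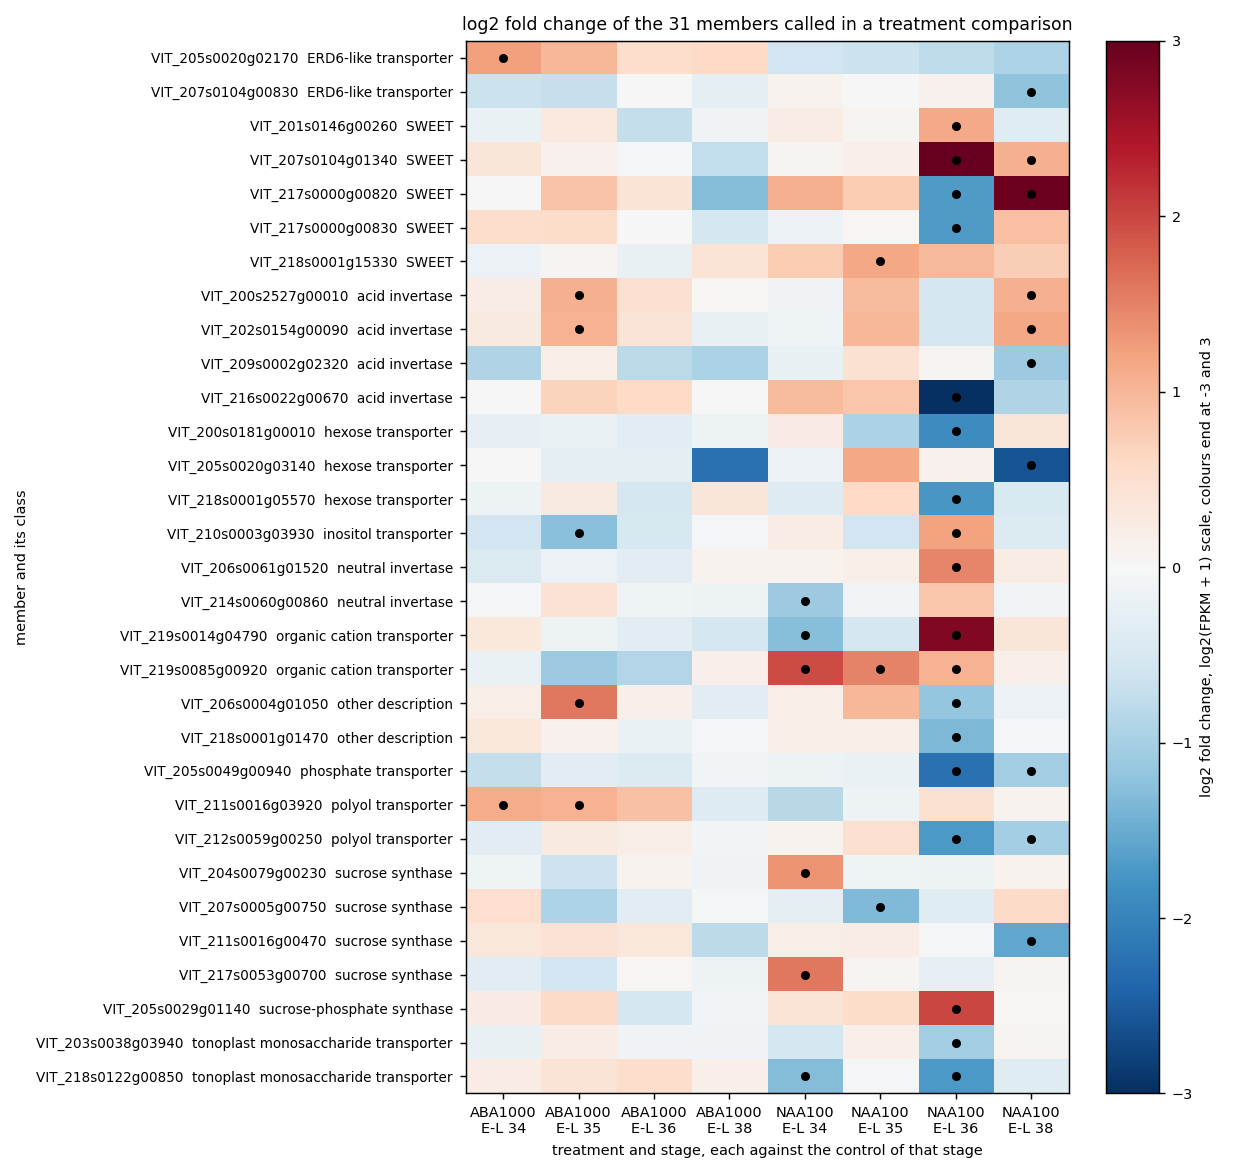
Colour map of the log2 fold change, on the log2(FPKM + 1) scale, of the 31 members called in at least 1 of the 8 comparisons of a spray with the control of its stage. Rows are members with their class, columns are treatment and stage, black dots mark calls, and colours end at -3 and 3. Most dots stand in the columns of NAA100 at E-L 36 (18 members) and E-L 38 (10 members).

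In the control itself, members changed at each step of ripening. From E-L 34 to E-L 35, 1 member rose (0.977% of all genes) and 3 fell (1.72%, or 2.7% either way). From E-L 35 to E-L 36, 5 rose (0.79%) and 7 fell (3.87%, or 4.66% either way), and from E-L 36 to E-L 38, 11 rose (9.47%) and 12 fell (7.76%, or 17.2% either way). Of the 72 members, 34 were called neither in a control step nor under a spray. The matching share over all genes is not given here, so this count is a description only.

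Acid invertases work in the vacuole or the cell wall. Of the 4 tested, 3 fell and 1 rose in the control from E-L 36 to E-L 38, where 7.76% of all genes fell and 9.47% rose. The class summed in the control to 226 ± 39.0 FPKM (SD, n = 3) at E-L 34 and to 21.1 ± 3.996 FPKM at E-L 38. In bulk tissue, fewer cells of a type and less RNA per cell cannot be told apart. Its main member was VIT_216s0022g00670 (chromosome 16, 12049376 to 12054304, plus strand; coordinates here are those of the deposited table, whose genome version is not given in the sources used here), described as a soluble beta-fructofuranosidase, the vacuolar form of the enzyme. In the control it stood at 107, 168 and 101 FPKM at E-L 34, at 69.6, 60.2 and 72.5 at E-L 35, at 8.78, 24.5 and 16.5 at E-L 36 and at 2.68, 2.29 and 1.97 at E-L 38. Each stage lay below the one before it without overlap, and the steps to E-L 36 (log2 fold change -2.06 ± 0.22 SE, adjusted p = 7.1e-08) and to E-L 38 (-2.31 ± 0.22, adjusted p = 5.3e-10) were called.

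NAA100 shifted this invertase both ways, by stage. At E-L 34 the sprayed berries had 227, 244 and 235 FPKM, all above the control, with a log2 change of 0.94 ± 0.22 that stayed under the size required (adjusted p = 0.0017). At E-L 36 they had 0.89, 0.965 and 0.55 FPKM, all below the control of that label, 20.7-fold lower in the ratio of means (log2 -3.19 ± 0.22, adjusted p = 7.6e-13). The change of the effect between these stages was itself called (-4.13 ± 0.31, adjusted p = 1.9e-11). Against the control at E-L 38, the NAA100 libraries of E-L 36 differed by -0.88 ± 0.22 (adjusted p = 0.0041), short of the size required. Under ABA1000 the same gene had 107, 96.01 and 121 FPKM at E-L 35, above the control but not called (0.67 ± 0.22, adjusted p = 0.029).

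Acid invertase genes VIT_202s0154g00090 and VIT_200s2527g00010, both described as acid beta-fructofuranosidase-like, moved so closely together that they may share reads of near-identical copies. They are described here as 1 uncertain signal. All counts of calls take them as 2 members, among the 4 raised by ABA1000 at E-L 35 and the 4 raised by NAA100 at E-L 38. Their control levels fell from 55.7, 56.0 and 53.6 FPKM at E-L 34 to 4.56, 5.89 and 4.59 at E-L 38 for VIT_202s0154g00090. At E-L 35 the ABA1000 berries had 51.3, 55.5 and 65.4 FPKM against 26.8, 23.8 and 32.0 in the control (log2 1.04 ± 0.18, adjusted p = 0.00035), and NAA100 had 63.4, 44.8 and 59.7 FPKM (0.99 ± 0.18, adjusted p = 0.00024, just under the size required). The sprayed and control libraries did not overlap. At E-L 38 it stood at 12.2, 14.9 and 10.2 FPKM under NAA100, again above all 3 controls (1.15 ± 0.18, adjusted p = 3.2e-05). The partner VIT_200s2527g00010 was called in the same 2 comparisons (1.06 ± 0.19 in both). The ABA1000 call of VIT_202s0154g00090 fell to a log2 change of 0.94 without ABA1000 at E-L 35 replicate 3 or without Control at E-L 35 replicate 2, and that of VIT_200s2527g00010 to 0.94 without the first. Without NAA100 at E-L 38 replicate 2 the call of VIT_200s2527g00010 fell to 0.87.

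The cell wall invertase VIT_209s0002g02320 (insoluble isoenzyme CWINV1 by its Swiss-Prot match), named after its values were seen, went the other way in the control. It had 0.903, 1.12 and 1.56 FPKM at E-L 35 and 14.4, 4.68 and 11.3 FPKM at E-L 38. Both sprays had lower levels at E-L 38, with 3.75, 4.58 and 4.60 FPKM under ABA1000 (log2 -0.95 ± 0.29, adjusted p = 0.03, not called) and 4.63, 2.69 and 4.30 under NAA100 (-1.10 ± 0.29, adjusted p = 0.0058). The call was lost when any of several libraries was left out, with log2 values of -0.80 without Control at E-L 38 replicate 1 (adjusted p = 0.0664), -0.96 without Control at E-L 38 replicate 3 (0.0352), -0.91 without NAA100 at E-L 38 replicate 2 (0.0443) and -1.17 without NAA100 at E-L 38 replicate 3 (0.0114).

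Neutral invertases, which act in the cytosol and in organelles, held steadier levels. All 7 members together, 6 of them tested, summed to 62.6 to 102 FPKM in the group means. The most abundant, VIT_214s0060g00860 (CINV2), had 29.6, 22.4 and 32.0 FPKM in the control at E-L 34 and 13.8, 12.3 and 11.3 under NAA100, with no overlap (log2 -1.09 ± 0.14, adjusted p = 1.2e-06; -0.99 without Control at E-L 34 replicate 3). At E-L 36 it was higher under NAA100 (27.1, 25.4 and 32.0 FPKM against 14.2, 16.1 and 15.6; 0.83 ± 0.14, adjusted p = 6.6e-06, under the size required), and the change of the effect was called (1.93 ± 0.20, adjusted p = 4.4e-09). VIT_206s0061g01520 (CINV1-like), named after its values were seen, rose under NAA100 at E-L 36 to 21.1, 22.6 and 25.2 FPKM from 8.29, 6.81 and 8.01 (1.46 ± 0.11, adjusted p = 2.7e-12). In the control it reached 16.9, 15.6 and 17.7 FPKM at E-L 38.

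**Figure D2:**
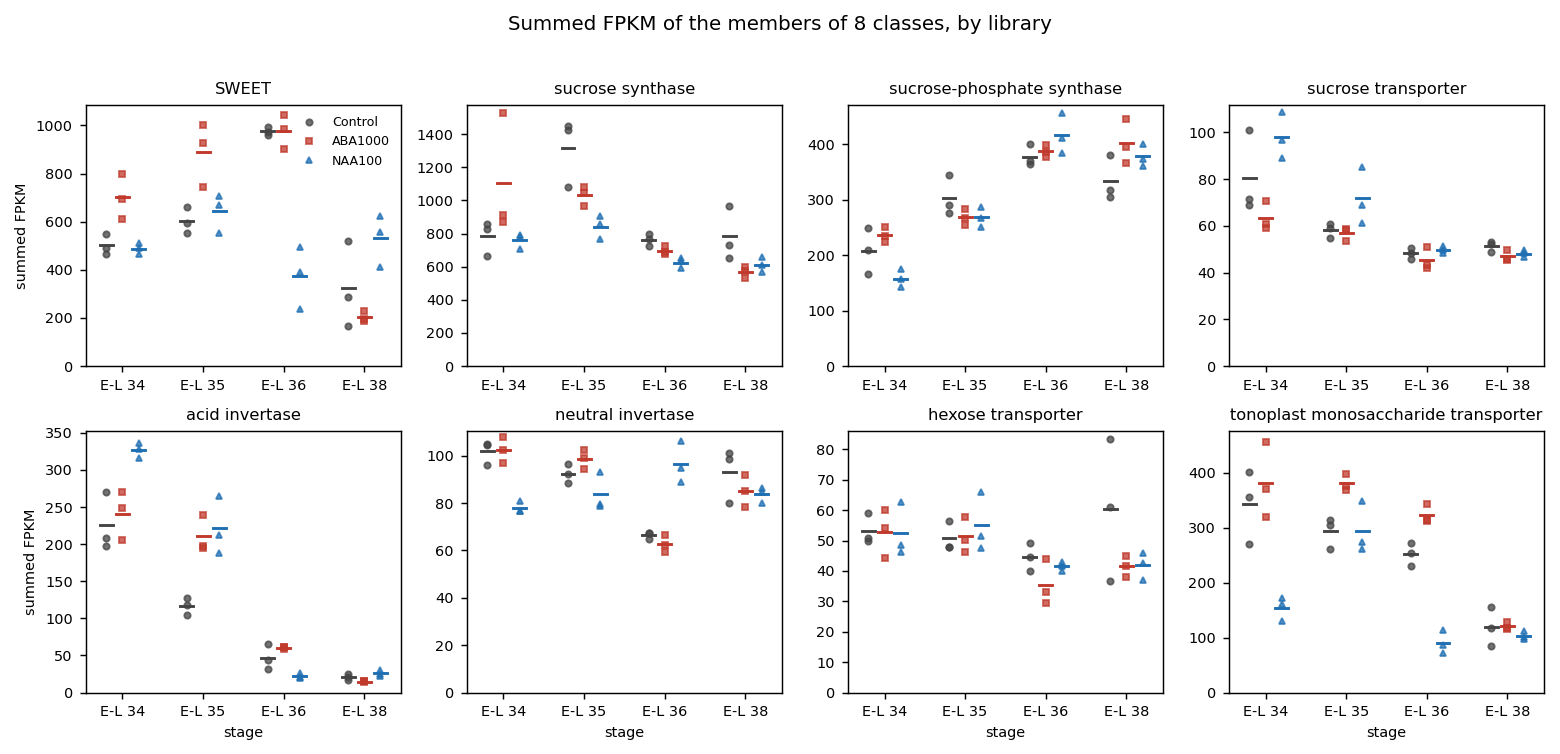
Summed FPKM of the members of 8 classes in each of the 36 libraries, by stage and treatment. Points are libraries (3 per group), short bars are group means, and every vertical axis starts at 0. Acid invertase falls from 226 FPKM at E-L 34 to 21.1 FPKM at E-L 38 in the control, and the SWEET sum of NAA100 at E-L 36 (374 FPKM) lies below that of the control (975 FPKM).

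Sucrose synthase was among the most abundant classes. It had 11 genes, 5 of them tested, and 2 carried nearly all of its signal. VIT_207s0005g00750 (sucrose synthase 2, chromosome 7, 3380739 to 3389952, minus strand) averaged 467 FPKM over the 36 libraries, 56.7% of the class. It comes from an earlier list of ripening switch genes, which were seen to rise at the onset of ripening. On these samples the study named it among switch genes inhibited by NAA. Its lower values under NAA100 are therefore not independent evidence. In the control it had 458, 345 and 432 FPKM at E-L 34 and rose to 1023, 1007 and 674 FPKM at E-L 35 (log2 1.11 ± 0.21, adjusted p = 0.00038; 0.99 without Control at E-L 34 replicate 2). NAA100 libraries of E-L 35 stood below all 3 controls, at 298, 396 and 373 FPKM (-1.32 ± 0.21 against the control, adjusted p = 8.8e-05, or 0.043 in a fit of these 6 libraries alone). ABA1000 also had lower values there, 517, 502 and 387 FPKM, without reaching the size required (-0.93 ± 0.21, adjusted p = 0.0033). Replicate 1 of ABA1000 at E-L 34 stood apart with 1032 FPKM, beside 460 and 412 FPKM in the other two. At E-L 38 the level under NAA100 was 452, 502 and 400 FPKM against 286, 279 and 342 (0.58 ± 0.21, adjusted p = 0.049, not called).

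The other abundant gene, VIT_211s0016g00470 (sucrose synthase, chromosome 11, 489955 to 494383, plus strand), dipped at E-L 36. Its control libraries had 397, 438 and 405 FPKM at E-L 35, 187, 209 and 190 FPKM at E-L 36 and 446, 374 and 623 FPKM at E-L 38. Both steps were called (-1.08 ± 0.12, adjusted p = 1.6e-07, and 1.26 ± 0.12, adjusted p = 6.3e-10). NAA100 berries at E-L 38 did not share the late rise. They had 157, 156 and 166 FPKM, 3.01-fold below the control (-1.55 ± 0.12, adjusted p = 2.6e-09). ABA1000 lay between, at 265, 244 and 313 FPKM (-0.78 ± 0.12, adjusted p = 0.0003, under the size required). NAA100 at E-L 36, with 175, 176 and 208 FPKM, did not differ beyond the replicate spread from its own control (-0.07 ± 0.12, adjusted p = 0.62) but was lower than the control at E-L 38 (-1.33 ± 0.12, adjusted p = 1.2e-08).

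Minor sucrose synthases were low and showed 2 further patterns, both noticed after the values were seen. VIT_217s0053g00700 (sucrose synthase 7-like) had 3.07, 2.90 and 3.80 FPKM under NAA100 at E-L 34 and at most 0.529 FPKM in the control, and VIT_204s0079g00230 (sucrose synthase 7) had 1.86, 1.62 and 2.91 against at most 0.264. Both rises were called (1.59 ± 0.11, adjusted p = 5.6e-11, and 1.34 ± 0.10, adjusted p = 3.6e-10). The third low gene, VIT_205s0077g01930, exceeded 1 FPKM in 3 libraries only, with 4.50 FPKM in ABA1000 at E-L 34 replicate 3, 2.36 in ABA1000 at E-L 35 replicate 2 and 2.18 in NAA100 at E-L 35 replicate 3. These are the same 3 libraries in which the seed genes summed to over 1000 FPKM.

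SPS transcripts were dominated by VIT_211s0118g00200 (probable SPS 1), which averaged 243 FPKM and was not called under any spray. Its control libraries had 225, 144 and 186 FPKM at E-L 34 and 337, 316 and 305 at E-L 36, with no single step called. Under NAA100 at E-L 34 it had 129, 145 and 118 FPKM (-0.48 ± 0.13, adjusted p = 0.0054, under the size required). The gene with the larger change was VIT_205s0029g01140 (probable SPS 3, chromosome 5, 16983395 to 16990121, minus strand), which the study chose as a hub gene on these samples. The control had 17.5, 16.5 and 16.7 FPKM at E-L 36 and 59.4, 55.7 and 68.2 FPKM at E-L 38 (1.79 ± 0.13, adjusted p = 5.4e-12). NAA100 already had 72.4, 69.0 and 70.7 FPKM at E-L 36, 4.18-fold above the control of that label (2.0 ± 0.13, adjusted p = 4.2e-13), whereas ABA1000 had 12.03, 11.1 and 11.6 FPKM, below all 3 controls but not called (-0.51 ± 0.13, adjusted p = 0.012). At E-L 38 the 3 treatments overlapped, and NAA100 at E-L 36 did not differ from the control at E-L 38 beyond the threshold (0.21 ± 0.13, adjusted p = 0.29).

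VIT_218s0089g00410 (SPS 1 in its protein description), named after its values were seen, rose earlier in the control, from 12.2, 16.2 and 16.9 FPKM at E-L 35 to 45.8, 36.8 and 42.4 at E-L 36 (1.41 ± 0.14, adjusted p = 1.7e-08). At E-L 36 it stood at 77.8, 74.0 and 70.5 FPKM under NAA100 (0.82 ± 0.14, adjusted p = 6.3e-06) and at 24.5, 30.0 and 29.0 FPKM under ABA1000 (-0.57 ± 0.14, adjusted p = 0.0072). The 3 treatments did not overlap at this stage, but neither difference reached the size required for a call.

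SWEET transcripts came almost wholly from 1 gene. Of the 17 SWEET genes 10 were tested, and VIT_217s0000g00830 (SWEET14, chromosome 17, 550873 to 553026, plus strand) made up 89.0% of the class, with a mean of 535 FPKM over all libraries. The control had 926, 935 and 910 FPKM at E-L 36 and fell to 232, 464 and 119 FPKM at E-L 38 (-1.97 ± 0.28, adjusted p = 7.9e-07), the latter with a wide spread. Under NAA100 the berries of E-L 36 had 420, 299 and 182 FPKM, all below the control (-1.70 ± 0.28, adjusted p = 6.9e-06), and those of E-L 38 had 466, 518 and 344 FPKM, overlapping it (0.89 ± 0.28, adjusted p = 0.022). ABA1000 libraries lay above the control without overlap at E-L 34 (746, 554 and 633 FPKM against 436, 397 and 494) and at E-L 35 (842, 679 and 909 against 544, 612 and 501), yet neither difference was called (0.54 ± 0.28, adjusted p = 0.23, and 0.55 ± 0.28, adjusted p = 0.17).

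Its neighbour VIT_217s0000g00820 (SWEET14-like in its protein description, SWEET12 by its Swiss-Prot match) lies upstream of it on the same strand. It had a lower level and was also called at E-L 38. The control had 34.2, 38.5 and 37.6 FPKM at E-L 34 and dropped to 1.79, 13.6 and 0.522 FPKM at E-L 38 (-3.14 ± 0.47 from E-L 36, adjusted p = 1.6e-06). NAA100 berries kept 29.8, 38.4 and 22.1 FPKM at E-L 38, all above the control (2.94 ± 0.47, adjusted p = 5.1e-05). Fitted on its own 6 libraries, this difference had an adjusted p of 0.0603. At E-L 36 NAA100 had 13.9, 16.4 and 3.83 FPKM against 31.8, 35.2 and 35.0 (-1.70 ± 0.47, adjusted p = 0.0025), which fell to -1.12 with an adjusted p of 0.0429 without NAA100 at E-L 36 replicate 3.

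Another SWEET gene, VIT_207s0104g01340 (SWEET14 by its Swiss-Prot match, chromosome 7, 2367939 to 2369769, minus strand), appeared late. In the control it was at or under 0.478 FPKM up to E-L 36 and had 15.2, 11.97 and 11 FPKM at E-L 38 (3.41 ± 0.27, adjusted p = 2.2e-11). NAA100 had 32.4, 48.4 and 28.3 FPKM already at E-L 36 (4.83 ± 0.27, adjusted p = 2e-14) and 31.2, 33.3 and 19.7 at E-L 38 (1.06 ± 0.27, adjusted p = 0.0052). The NAA100 libraries of E-L 36 also lay above the control at E-L 38 (1.42 ± 0.27, adjusted p = 0.00038), the only member called higher there. That call was lost with 0.1 FPKM added in place of 1 (1.48, adjusted p = 0.204) and in a fit of its own 6 libraries (adjusted p = 0.0144). The smaller change at E-L 38 lost its call without Control at E-L 38 replicate 2 (1.03, adjusted p = 0.0174), without Control at E-L 38 replicate 3 (0.97), and without NAA100 at E-L 38 replicate 1 (0.97) or 2 (0.92). ABA1000 at E-L 38 had 6.63, 5.86 and 9.29 FPKM, below the control without overlap but not called (-0.74 ± 0.27, adjusted p = 0.078).

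VIT_201s0146g00260 (SWEET N3), named after its values were seen, rose in the control from 0.674 to 1.12 FPKM at E-L 35 to 19.5 to 23.3 FPKM at E-L 38 and was called higher under NAA100 at E-L 36 (12.6, 16.6 and 11.1 FPKM against 6.07, 4.995 and 5.52; 1.13 ± 0.18, adjusted p = 4.9e-06; 0.98 without NAA100 at E-L 36 replicate 2). It shares 3236 bases with the gene VIT_201s0146g00250 on the opposite strand, which averaged 7.94 FPKM. No source states a stranded count, so reads of the 2 genes cannot be told apart.

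**Figure D3:**
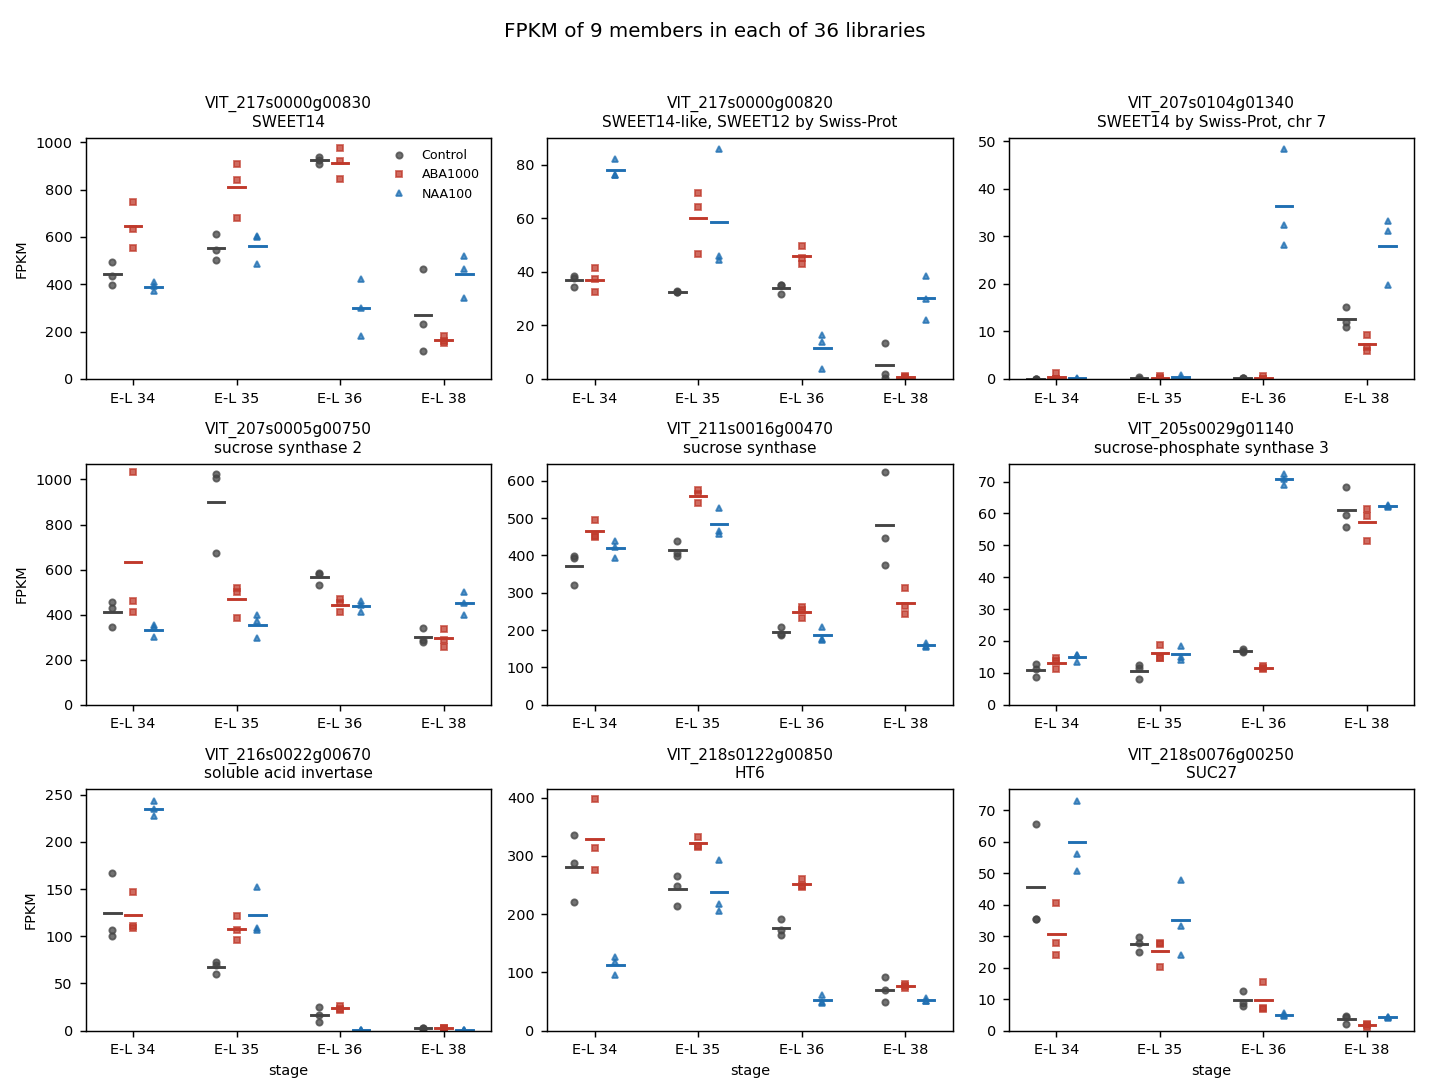
FPKM of 9 members in each of the 36 libraries, by stage and treatment, on axes that start at 0. Points are libraries (3 per group) and short bars group means. SPS 3 (VIT_205s0029g01140) stands at 69.0 to 72.4 FPKM in NAA100 at E-L 36 against 16.5 to 17.5 FPKM in the control, while the acid invertase VIT_216s0022g00670 stands under 1 FPKM there.

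The 3 sucrose transporters were not called under any spray. SUC11 (VIT_218s0001g08210), whose Swiss-Prot match is SUC4, was the most abundant and ranged from 18.4 to 36.8 FPKM over all 36 libraries. It had 34.6, 34.8 and 36.8 FPKM under NAA100 at E-L 36 against 28.6, 24.2 and 24.0 in the control (0.46 ± 0.07, adjusted p = 1.3e-06), with no overlap but under the size required. SUC27 (VIT_218s0076g00250), named after its values were seen, fell in the control from 35.5, 65.5 and 35.5 FPKM at E-L 34 to 4.58, 4.21 and 2.16 at E-L 38, and its steps to E-L 36 (-1.44 ± 0.28, adjusted p = 0.0002) and to E-L 38 (-1.21 ± 0.28, adjusted p = 0.00043; -0.96 without Control at E-L 38 replicate 3) were called. The third, VIT_201s0026g01960 (SUC3 by its Swiss-Prot match), stood between 8.76 and 21.5 FPKM throughout.

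Monosaccharide transporters of the tonoplast were led by HT6 (VIT_218s0122g00850, chromosome 18, 612611 to 619184, plus strand), whose Swiss-Prot match is monosaccharide-sensing protein 2. It averaged 184 FPKM and fell in the control from 335, 220 and 287 FPKM at E-L 34 to 69.4, 91.3 and 49.9 at E-L 38. NAA100 lowered it at E-L 34, where the berries had 126, 118 and 95.3 FPKM (-1.30 ± 0.17, adjusted p = 1.7e-06), and at E-L 36, with 61.6, 49.8 and 47.5 against 164, 191 and 174 FPKM (-1.72 ± 0.17, adjusted p = 8.1e-10). Between these stages, at E-L 35, NAA100 and control libraries overlapped (217, 205 and 294 against 214, 249 and 266 FPKM; -0.04 ± 0.17). The chlorophyll-binding genes were high in the same NAA100 libraries of E-L 34, and their part was not tested. ABA1000 lay above the control at E-L 35 (314, 317 and 333 FPKM) and at E-L 36 (261, 248 and 247 FPKM) without overlap, and neither was called (0.41 ± 0.17, adjusted p = 0.085, and 0.52 ± 0.17, adjusted p = 0.041). The second gene of the class, VIT_203s0038g03940, named after its values were seen, had 51.5, 36.4 and 25.0 FPKM under NAA100 at E-L 36 against 67.3, 81.6 and 80.0 (-1.05 ± 0.20, adjusted p = 3.2e-05; -0.80 without NAA100 at E-L 36 replicate 3).

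Hexose transporters were less abundant, with class sums of 35.5 to 60.2 FPKM in the group means. HT3 (VIT_211s0149g00050) led the class with a mean of 15.7 FPKM and was higher under NAA100 at E-L 36 (24.7, 22.1 and 24.4 against 14.7, 15.03 and 13.8 FPKM; 0.67 ± 0.12, adjusted p = 3.1e-05) and at E-L 38 (0.56 ± 0.12, adjusted p = 0.0015), in both cases without a call. The following 3 were named after their values were seen. VIT_218s0001g05570 (sugar transport protein 5 by its Swiss-Prot match) fell from 8.91, 10.6 and 8.92 FPKM to 2.81, 2.11 and 1.59 under NAA100 at E-L 36 (-1.74 ± 0.17, adjusted p = 1.1e-09). VIT_200s0181g00010 (putative hexose transporter) had 1.57, 2.01 and 1.90 FPKM there against 14.8, 7.95 and 6.99 (-1.89 ± 0.44, adjusted p = 0.00049). HT5 (VIT_205s0020g03140) stood at 43.0, 1.64 and 31.0 FPKM in the control at E-L 38 and at 1.12, 2.52 and 1.30 under NAA100. The groups overlapped, and the call (-2.58 ± 0.65, adjusted p = 0.0046) was lost without Control at E-L 38 replicate 1 (-1.83, adjusted p = 0.0598), without Control at E-L 38 replicate 3 (-2.06, adjusted p = 0.0416), and without either NAA100 replicate 1 (-2.44) or 3 (-2.50).

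The Sugar_tr domain is shared by carriers of other substrates. Of the organic cation transporters, VIT_219s0014g04790 (organic cation/carnitine transporter 4) had 1.10, 1.26 and 1.71 FPKM under NAA100 at E-L 34 against 5.41, 4.21 and 4.49 in the control (-1.28 ± 0.13, adjusted p = 6.4e-08). At E-L 36 it had 64.1, 64.5 and 68.4 FPKM against 8.72, 8.98 and 8.30 (2.79 ± 0.13, adjusted p = 1.5e-15), and the control reached 56.2, 51.4 and 60.3 FPKM at E-L 38. The groups were apart in each case, and the change of the effect from E-L 34 to E-L 36 was 4.06 ± 0.19 (adjusted p = 8.3e-15). VIT_219s0085g00920 (organic cation/carnitine transporter 2 by its Swiss-Prot match), the most abundant of the class, was raised by NAA100 earlier, to 58.0, 55.2 and 55.1 FPKM at E-L 34 from 12.9, 18.2 and 10.6 (1.97 ± 0.34, adjusted p = 7.2e-05).

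The later NAA100 calls of VIT_219s0085g00920 were less stable, although its sprayed libraries of E-L 36 all lay above the control. It had 85.1, 69.9 and 18.1 FPKM under NAA100 at E-L 35 against 19.9, 18.2 and 12.2, with overlap (1.49 ± 0.34, adjusted p = 0.0022), and lost its call without NAA100 at E-L 35 replicate 1 (1.08, adjusted p = 0.0292), without NAA100 at E-L 35 replicate 2 (1.22, adjusted p = 0.0224) or without Control at E-L 35 replicate 3 (1.29, adjusted p = 0.0138). At E-L 36 it had 124, 136 and 121 FPKM against 68.8, 55.5 and 57.9 (1.05 ± 0.34, adjusted p = 0.0074), a call that was lost when any of the 6 libraries was left out, with log2 values from 0.99 without Control at E-L 36 replicate 2 (adjusted p = 0.0262) to 1.15 without Control at E-L 36 replicate 1 (adjusted p = 0.0107). ABA1000 differences at E-L 35 and, with 33.2, 32.9 and 30.8 FPKM, at E-L 36 were not called (-1.10 ± 0.34, adjusted p = 0.021, and -0.89 ± 0.34, adjusted p = 0.082).

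Of the carriers of phosphate and polyols, 1 of 4 and 1 of 2 tested members were called lower under NAA100 at E-L 36. None was called higher. Among all genes 10.8% were called lower and 9.05% higher there, and classes this small cannot be set against those shares. VIT_205s0049g00940 (inorganic phosphate transporter 1-4-like) had 9.09, 7.19 and 7.84 FPKM against 52.2, 39.5 and 35.4 (-2.25 ± 0.19, adjusted p = 5.6e-11), and VIT_212s0059g00250 (probable polyol transporter 4) had 1.33, 1.20 and 1.25 against 7.19, 5.87 and 6.24 (-1.71 ± 0.16, adjusted p = 2.6e-10). Both were also called lower at E-L 38 (-1.03 ± 0.19 and -1.02 ± 0.16), with values of -0.77 and -0.81 without Control at E-L 38 replicate 1 and of -0.99 and -0.95 without NAA100 at E-L 38 replicate 1. The ERD6-like transporter VIT_207s0104g00830 was lower under NAA100 at E-L 38 as well (5.29, 5.14 and 4.49 against 13.1, 10.3 and 15.1 FPKM; -1.20 ± 0.23, adjusted p = 0.00031). In the control it had dropped to 3.65 to 6.54 FPKM at E-L 36 and risen again at E-L 38.

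ABA1000 raised 2 low transporters early. VIT_211s0016g03920 (polyol transporter 5), named after its values were seen, had 2.34, 3.70 and 3.59 FPKM at E-L 34 against 1.08, 0.726 and 0.988 (1.11 ± 0.20, adjusted p = 0.0016; adjusted p = 0.0212 without Control at E-L 34 replicate 2) and 3.10, 3.99 and 3.46 at E-L 35 against 1.32, 1.599 and 0.745 (1.04 ± 0.20, adjusted p = 0.00093). The second call fell to 0.96 without ABA1000 at E-L 35 replicate 2, the library with the highest seed sum, and to 0.87 without Control at E-L 35 replicate 3. VIT_205s0020g02170 (ERD6-like 16), likewise, had 7.54, 2.06 and 2.90 FPKM at E-L 34 against 1.66, 0.824 and 0.614 (1.23 ± 0.29, adjusted p = 0.0097), and 0.80 with an adjusted p of 0.0868 without ABA1000 at E-L 34 replicate 1. Its call was also lost without ABA1000 at E-L 34 replicate 3 (adjusted p = 0.0109) and without Control at E-L 34 replicate 2 (0.0686) or 3 (0.0367). The only fall under ABA1000, singled out for that reason, was that of inositol transporter 2 (VIT_210s0003g03930) at E-L 35, to 3.46, 2.76 and 2.84 FPKM from 12.1, 8.05 and 6.32 (-1.25 ± 0.25, adjusted p = 0.0013; -1.02 with an adjusted p of 0.0168 without Control at E-L 35 replicate 1). The remaining call was VIT_206s0004g01050, an uncharacterized protein with a Sugar_tr domain, at 14.5, 11.1 and 14.5 FPKM against 3.34, 3.07 and 5.02 at E-L 35 (1.59 ± 0.26, adjusted p = 0.00026).

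Besides SUC11, SPS 1 and HT3, the class leaders not called under any spray were the plastidic glucose transporter VIT_211s0016g03660 (88.7 FPKM on average, 68.7 to 108 FPKM over the libraries), INT1 (VIT_205s0102g00145, 7.51 FPKM), the ERD6-like 8 gene VIT_214s0030g00340 (43.4 FPKM) and the D-xylose-proton symporter-like gene VIT_216s0039g02170 (10.47 FPKM). INT1 fell in the control from E-L 35 to E-L 36 (-1.29 ± 0.11, adjusted p = 4.1e-09). VIT_214s0030g00340 had 24.6, 20.3 and 25.6 FPKM under NAA100 at E-L 36 against 43.5, 37.8 and 48.6 (-0.85 ± 0.12, adjusted p = 6.8e-07), close to the 20.1 to 24.6 FPKM of the control at E-L 38.

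Set against the control at E-L 38, the NAA100 libraries of E-L 36 differed in 6 of the 72 members, 1 higher (0.307% of all genes) and 5 lower (3.36%, or 3.67% either way), a comparison added after the data were seen. The count was 3 without Control at E-L 38 replicate 1, up to 9 without other single libraries, and 1 when only the 6 libraries were fitted. Besides the SWEET gene above, the 5 lower ones were the sucrose synthase VIT_211s0016g00470, the phosphate and polyol carriers, VIT_207s0104g00830 (-1.10 ± 0.23, adjusted p = 0.00076) and HT5. Without Control at E-L 38 replicate 1 the phosphate carrier VIT_205s0049g00940 fell to -0.89, the polyol carrier VIT_212s0059g00250 to -0.81 and HT5 (VIT_205s0020g03140) to an adjusted p of 0.0452, and without Control at E-L 38 replicate 3 VIT_207s0104g00830 fell to -0.99. HT5 lost its call without Control at E-L 38 replicate 3 and without NAA100 at E-L 36 replicate 1 or 2 as well (adjusted p = 0.0303, 0.0138 and 0.012). Most members called against the control of E-L 36 were not called against that of E-L 38. SWEET14 (VIT_217s0000g00830) differed from the latter by 0.27 ± 0.28 (adjusted p = 0.56), its neighbour VIT_217s0000g00820 by 1.45 ± 0.47 (adjusted p = 0.028) and SWEET N3 (VIT_201s0146g00260) by -0.64 ± 0.18 (adjusted p = 0.013). The tonoplast genes HT6 (VIT_218s0122g00850) and VIT_203s0038g03940 differed by -0.37 ± 0.17 (adjusted p = 0.13) and -0.39 ± 0.20 (adjusted p = 0.17). For the hexose transporters the differences were 0.61 ± 0.12 for HT3 (VIT_211s0149g00050, adjusted p = 0.0007), -0.55 ± 0.17 for VIT_218s0001g05570 (adjusted p = 0.024) and 0.06 ± 0.44 for VIT_200s0181g00010 (adjusted p = 0.96). The neutral invertases VIT_214s0060g00860 and VIT_206s0061g01520 differed by 0.26 ± 0.14 (adjusted p = 0.19) and 0.43 ± 0.11 (adjusted p = 0.0041), and SUC11 (VIT_218s0001g08210) by 0.12 ± 0.07 (adjusted p = 0.22). The organic cation transporters VIT_219s0014g04790 and VIT_219s0085g00920 differed by 0.23 ± 0.13 (adjusted p = 0.25) and 0.20 ± 0.34 (adjusted p = 0.75), and the SPS gene VIT_218s0089g00410 by 0.07 ± 0.14 (adjusted p = 0.78). HT3 and VIT_206s0061g01520 passed the p threshold but not the size required, and the others missed it.

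Over the 72 members the mean profile of NAA100 at E-L 36 correlated across genes at r = 0.857 with the control at E-L 36, at 0.959 with the control at E-L 38 and at 0.993 with NAA100 at E-L 38. Genes are not independent replicates, and these values are a description.

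**Figure D4:**
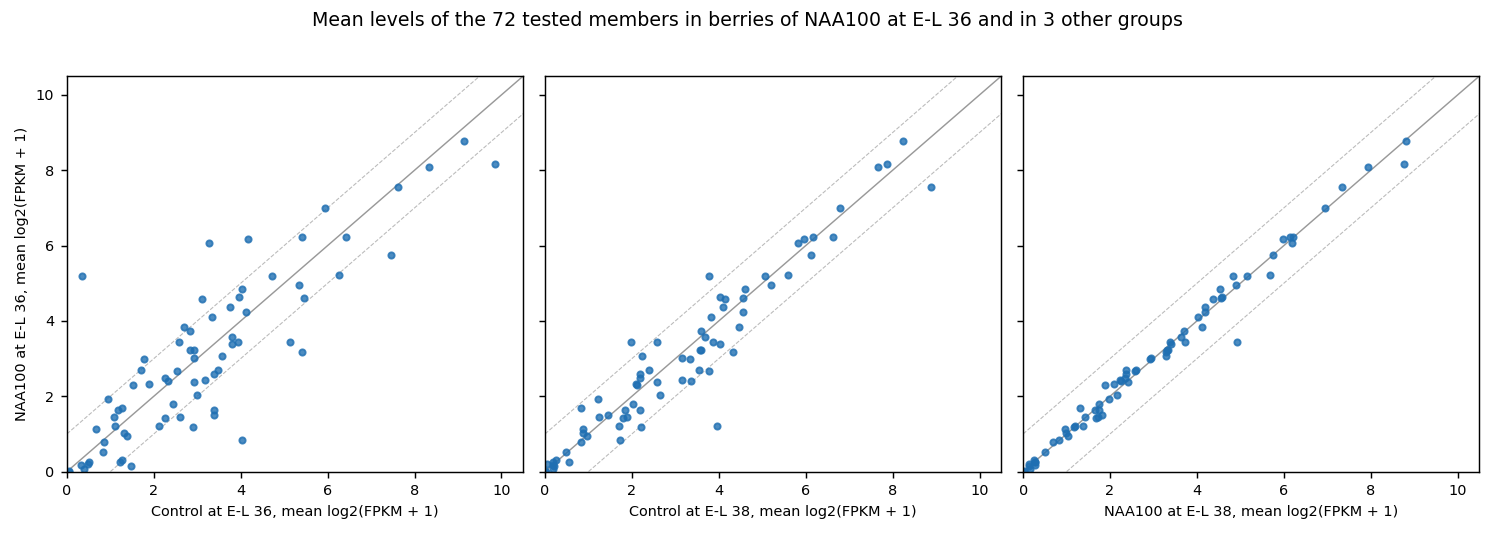
Mean log2(FPKM + 1) of the 72 tested members in NAA100 at E-L 36 (vertical axis) against the control at E-L 36, the control at E-L 38 and NAA100 at E-L 38 (horizontal axes). Each point is a member, the solid line marks equal levels and the dashed lines a log2 difference of 1. Points lie closest to the line in the panel of NAA100 at E-L 38, where no member was called, and farthest in that of the control at E-L 36, where 18 were.

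Whether a spray effect changed from E-L 34 to E-L 36 was tested for both sprays. For NAA100, 9 members changed upwards (8.75% of all genes) and 14 downwards (13.6%, or 22.3% either way). No member was called for ABA1000 by limma (0.432% of all genes), where 17 had an unadjusted p under 0.05. For that count, too, the share of all genes is not given here.

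Other genes of the pathway were taken from a list by annotation: hexokinases, fructokinases, sucrose phosphatases, UDP-sugar pyrophosphorylases, invertase inhibitors and vacuolar proton pyrophosphatases, 40 genes of which 29 were tested. The text match for fructokinases also took in phosphofructokinases, enzymes of glycolysis. ABA1000 raised 1 of them at E-L 36, where 0.665% of all genes were called, and changed none at the other stages. NAA100 lowered 1 at stage 34 (3.79% of all genes called), 1 at stage 35 (2.44%) and 1 at stage 38 (3.42%). A single call among 29 genes cannot be set against such shares. NAA100 raised 3 and lowered 3 of the 29 at E-L 36, where 19.9% of all genes were called. The single NAA100 calls of stages 34 and 38 were unstable. At E-L 35 the count stayed at 1 whichever library was left out. At E-L 34 there were 0 to 2 calls when a library was left out (0 without NAA100 replicate 3), and at E-L 38 there were 0 to 4 (0 without Control replicate 1, 4 without Control replicate 2). In fits of only the 6 libraries of each comparison there was none at these 3 stages. For ABA1000, leaving out Control replicate 3 at E-L 35 or Control replicate 2 at E-L 38 gave 2 calls where there had been none. Invertase inhibitors are small proteins that bind and block acid invertase, and VIT_215s0021g00540 (putative invertase inhibitor) was called in 3 of the spray comparisons. In the control it rose from 9.37, 7.04 and 8.97 FPKM at E-L 34 to 51.5, 75.02 and 68.3 at E-L 38. NAA100 had 3.58, 4.33 and 1.82 FPKM at E-L 34 (-1.20 ± 0.20, adjusted p = 4.8e-05) and 49.1, 57.1 and 63.5 FPKM at E-L 36 against 23.6, 18.5 and 24.6 (1.31 ± 0.20, adjusted p = 1.6e-06). ABA1000 had 45.4, 47.5 and 44.0 FPKM there (1.01 ± 0.20, adjusted p = 0.0016), a call that was lost on TPM, after quantile normalization, without ABA1000 at E-L 36 replicate 2 and without Control at E-L 36 replicate 2. For VIT_215s0021g00540 the sprayed libraries of E-L 36 lay above the control under both agents. The invertase inhibitor VIT_202s0012g00500, named after its values were seen, lay above the control under NAA100 there. Under ABA1000 it lay below the control, a difference that was not called. It had 74.55, 84.33 and 86.62 FPKM under NAA100 and 20.08, 18.96 and 25.56 under ABA1000, against 33.65, 35.24 and 32.41 in the control. At E-L 38 its control libraries had 62.88, 69.65 and 76.82 FPKM. The vacuolar invertase VIT_216s0022g00670 was called lower at E-L 36 under NAA100 and was not called under ABA1000 (0.60 ± 0.22, adjusted p = 0.069).

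Also named after its values were seen is the phosphofructokinase VIT_204s0008g00520, an enzyme of glycolysis. It rose in the control from 168, 143 and 168 FPKM at E-L 34 to 453, 376 and 262 at E-L 35 (1.15 ± 0.21, adjusted p = 0.00021) and had 114, 146 and 146 FPKM under NAA100 at E-L 35 (-1.39 ± 0.21, adjusted p = 4.1e-05). The vacuolar proton pyrophosphatase VIT_211s0118g00350, a pump that energises the tonoplast, stood at 47.7, 34.6 and 36.8 FPKM under NAA100 at E-L 36 against 97.7, 102 and 102 FPKM (-1.34 ± 0.18, adjusted p = 1.9e-07). The control at E-L 38 had 37.35, 57.51 and 31.24 FPKM, which overlapped the NAA100 libraries of E-L 36. For these other genes of the pathway, that pair of groups was not tested.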

How the data were processed

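RNA of deseeded berries was sequenced by the authors in 36 libraries on an Illumina HiSeq instrument. According to the methods of the study, reads were mapped with TopHat to the grape genome of the CRIBI site; the submitters' processing notes name Bowtie. The counting tool and the genome version for these reads are not given in the sources used here. The authors deposited FPKM values per gene and library, without scaling between libraries (column totals from 489454 to 596970 FPKM); the methods call the same values RPKM. No counts were used, and the error of low values is seen only as spread among replicates.

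Members and partner genes were taken by annotation. The members, lists and comparisons were chosen with earlier results of these data known. Classes were assigned from the Pfam entry and the NR or Swiss-Prot description, since the NR text of many members is an unnamed product; the planned rule used NR alone. Genes named in the text were the most abundant of each class, the 2 largest rises and falls per spray comparison and the largest rise and fall per control step (called, at least 10 FPKM in the higher group, no overlap between libraries), and 2 genes that the study picked on these samples, VIT_207s0005g00750 and VIT_205s0029g01140. Another gene picked there, VIT_218s0075g00350, is not a member by the rule and averaged 0.594 FPKM, with at most 3.01 FPKM. Others are marked as named after their values were seen.

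Genes with at least 1 FPKM in at least 3 libraries (17598) were fitted as log2(FPKM + 1) with limma 3.58.1 in R 4.3.3, with 12 group means, a variance trend and 24 residual degrees of freedom, and p-values were adjusted by Benjamini-Hochberg over all of them. Fold changes on this scale understate the change of low genes. Summaries used Python 3.11.15 and pandas 2.3.3. The fit was tested on simulated data. With 3 libraries against 3, an exact permutation test of a single gene could not go below p = 0.1. Alternatives were 0.1 FPKM added in place of 1, no filter, a mean of at least 5 FPKM (10553 genes), TPM, median-of-ratios scaling (factors 0.833 to 1.20), quantile normalization, only the libraries of a comparison, omission of single libraries, and a replicate block. No sequences were printed, since none were among the references used here.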

Additional observations from a re-analysis of the deposited data

Results flagged for a closer look

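For 11 of the named members the effect of NAA100, set against the control of the same stage, itself changed from E-L 34 to E-L 36 by limma's test of the difference, on the log2 scale. It changed upwards by 4.75 for the SWEET gene VIT_207s0104g01340 (adjusted p = 8.4e-11), by 4.06 for the organic cation transporter VIT_219s0014g04790 (8.3e-15), by 1.93 for the neutral invertase VIT_214s0060g00860 (4.4e-09) and by 1.58 for the sucrose-phosphate synthase VIT_205s0029g01140 (5.8e-08).

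The difference was -4.13 for the vacuolar invertase VIT_216s0022g00670 (1.9e-11), -2.76 for the SWEET gene VIT_217s0000g00820 (0.00087) and -1.52 for SWEET14, VIT_217s0000g00830 (0.0019). It was -2.10 for the phosphate transporter VIT_205s0049g00940 (2.3e-07), -1.82 for the polyol transporter VIT_212s0059g00250 (1e-07), -1.35 for VIT_206s0004g01050 (0.0027) and -1.02 for the ERD6-like gene VIT_214s0030g00340 (1.4e-05). All of these differences rest on the libraries labelled NAA100 at E-L 36, whose profile was closest to NAA100 at E-L 38. The part of ripeness in them was not tested.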

How the results depend on the processing

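Of the 44 calls of members in the 8 spray comparisons, 20 were kept under every alternative run and 24 were lost under at least 1. The fit of only the libraries of a comparison, which has fewer samples, lost 18 of them, and leaving out a library lost 19. For ABA1000 at E-L 34 the 2 calls became 1 with 0.1 FPKM added, with no filter, on TPM and with the replicate block, and 0 with a mean of at least 5 FPKM or with only the libraries of the comparison. With only those libraries the counts became 0 for ABA1000 at E-L 35 (5), 0 for NAA100 at E-L 35 (3), 2 for NAA100 at E-L 38 (10) 1 for the control from E-L 34 to E-L 35 (4) and 1 for NAA100 at E-L 36 against the control at E-L 38 (6). With 0.1 FPKM added, NAA100 at E-L 35 and the control from E-L 34 to E-L 35 had 5 and 7 calls, and ABA1000 at E-L 36 had 1, as it had on TPM and after quantile normalization. NAA100 at E-L 35 had 5 on TPM.

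Leaving out each library in turn gave 0 to 2 calls for ABA1000 at E-L 34, 3 to 6 at E-L 35, 0 to 2 at E-L 36 and 0 to 2 at E-L 38. It gave 5 to 7 for NAA100 at E-L 34, 3 to 5 at E-L 35, 16 to 20 at E-L 36 and 6 to 11 at E-L 38. The control steps had 2 to 6, 10 to 14 and 19 to 23 calls, and the changes of the ABA1000 and NAA100 effects 0 to 1 and 19 to 25. NAA100 at E-L 36 against the control at E-L 38 had 3 to 9. ABA1000 at E-L 34 had 0 calls without Control at E-L 34 replicate 2, and at E-L 35 it had 3 without ABA1000 at E-L 35 replicate 3. It had 2 without Control replicate 2 at E-L 36 and at E-L 38. NAA100 had 5 at E-L 35 without its replicate 2, and 6 at E-L 38 without Control or NAA100 replicate 1. The control from E-L 34 to E-L 35 had 2 without replicate 2 of either stage.

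Column numbers were not used to pair the samples, although the paper describes a randomized block design in the field. Deviations of same-numbered libraries correlated above 0.1 in 5 of 24 pairs (-0.291 to 0.338). Differently numbered pairs were not computed for reference, so this check cannot decide whether the numbers follow field plots. The replicate block otherwise moved few counts, to 6 for ABA1000 at E-L 35 and 24 for the change of the NAA100 effect (23). Among the 24 genes named by rule, no change called in the main fit or under an alternative reversed its direction. Sign changes of values called in neither were not counted. The genes named after their values were seen were not part of that check. The FPKM table gives no counts, so the limit that depth sets on the low members is unknown.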
